A study of Mus musculus with 6 samples.

Results

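The Ms4a genes encode small proteins that cross the membrane 4 times, and most of them lie side by side in a cluster on mouse chromosome 19. The 10 genes described here are Ms4a3, Ms4a4a, Ms4a4b, Ms4a4c, Ms4a4d, Ms4a6b, Ms4a6c, Ms4a6d, Ms4a7 and Ms4a8a, found by symbol among the 55487 genes of the table, where 21 rows carry an Ms4a name. They were selected on an earlier reading of the same NanoCa and Mock values, so their differences between the groups are given as a description, with no test. Bone marrow-derived dendritic cells (BMDC, myeloid cells grown out of mouse marrow in culture) labelled as treated with NanoCa at 100 μM were compared with cells labelled Mock and as untreated. NanoCa is the calcium lipid nanoparticle of the study's title. Per the labels, all cells came from female mice of 4 to 8 weeks, no genotype beyond this was named, and the medium was DMEM with serum. The sources used here give no strain, no culture cytokines and no exposure time, and all samples carry 1 batch label. The dose stands in a protocol that the Mock samples carry too, so their group rests on the treatment label and the title.

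The labels give 3 samples per group, but the third column of each group equalled the mean of the first and second columns times 1 constant, 1.0011 in NanoCa and 1.00188 in Mock. Every value below therefore comes from 2 libraries per group, with totals between 22793565 and 31131990 reads, and the labels do not say that they came from separate animals or cultures. The unit is FPKM (reads scaled by gene length and by library size), so levels can be compared between genes per length. For a gene 1 kilobase long, a single read made 0.0321 to 0.0439 FPKM depending on the library. The groups also differed in transcripts tied to sex, against the single label of female mice. Xist, the long RNA of X chromosome inactivation, stood at 33.5 and 33.3 FPKM in NanoCa and at 0.00179 and 0.00207 in Mock, and 4 Y-linked genes were found in both groups, in NanoCa at 29.4% to 40.4% of their Mock levels. The part of this difference in any result below was not tested. Of the defining dendritic cell genes, Itgax (CD11c) was at a mean of 72.9 FPKM in NanoCa against 117 in Mock, while Flt3 and Zbtb46 stayed under 1 FPKM in both group means. The monocyte and macrophage genes Csf1r (402 FPKM in NanoCa and 338 in Mock) and Adgre1 (418 and 217) were high. Other markers of these cell types differed in the other direction, such as monocyte Ccr2 (69.6 in NanoCa and 427 in Mock) and dendritic cell Fscn1 (6.55 and 3.63). The marker lists given below were mixed in direction.

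Members of the family work as parts of receptor complexes and as modulators of signalling at the membrane. The best known are Ms4a1, which is the B cell antigen CD20, and Ms4a2, the beta chain of the high-affinity IgE receptor of mast cells and basophils. The Ms4a4, Ms4a6 and Ms4a7 genes are known mainly from monocytes and macrophages in the mouse, with Ms4a4b known from T cells, and Ms4a3 marks granulocyte-monocyte progenitors.

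The family as a whole was more abundant in NanoCa, and its make-up differed. All 21 rows named Ms4a summed to 1774 and 1723 FPKM in the NanoCa libraries and to 625 and 601 in the Mock libraries, a ratio of group means of 2.85. The 10 genes held 98.9% of this sum in NanoCa and 98.4% in Mock. Ms4a6d, Ms4a7 and Ms4a6c were the 3 most abundant members in both groups. Next came Ms4a4a, Ms4a6b and Ms4a4c in Mock, and Ms4a4c, Ms4a4a and Ms4a6b in NanoCa. At the lengths behind the FPKM, neighbours in this order did not overlap between their 2 libraries, apart from Ms4a4d and Ms4a4b in NanoCa.

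**Figure D1:**
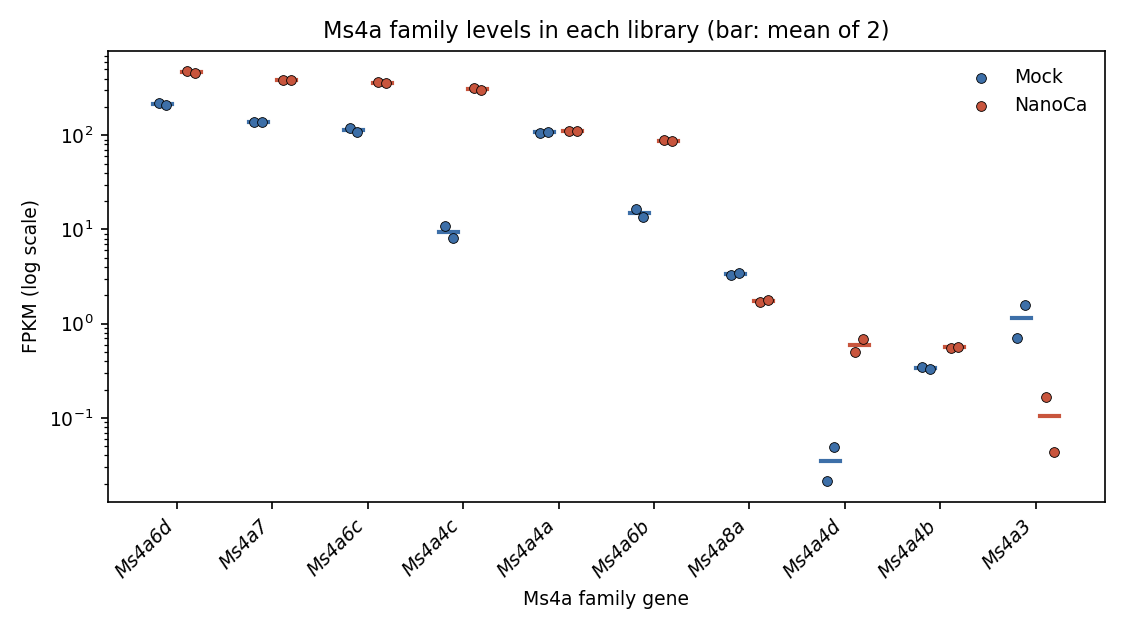
FPKM of each of the 10 genes in the 2 Mock and 2 NanoCa libraries, on a log axis, ordered by the NanoCa mean (points are libraries, bars are means). Ms4a4c lies at 303 and 316 FPKM in NanoCa against 8.18 and 10.8 in Mock, Ms4a4a is at nearly the same level in all 4 libraries, and Ms4a8a and Ms4a3 are the 2 genes with NanoCa below Mock.

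Ms4a4c (ENSMUSG00000024675), known from monocytes in the mouse, had the widest gap of the family. It was at 316 and 303 FPKM in NanoCa and at 10.8 and 8.18 in Mock, which rest on 13042 and 11911 reads against 582 and 380. Both NanoCa libraries lay far above both Mock libraries. The group means were 309 ± 8.64 and 9.51 ± 1.89 FPKM (SD, n = 2), a 32.5-fold ratio, and the log2 fold change was 4.90 (SE 0.11, here and below on log2(FPKM + 1)). Of 11116 genes tested across the table, 3 had a larger positive log2 fold change. In Mock, 52.9% of tested genes were more abundant than Ms4a4c, and in NanoCa 1.90%.

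The Ms4a6 genes form a closely related trio of mouse myeloid cells. Ms4a6b (ENSMUSG00000024677) was at 89.5 and 86.0 FPKM in NanoCa and at 16.4 and 13.5 in Mock, means of 87.8 ± 2.52 and 14.97 ± 2.05 and a 5.86-fold ratio. Ms4a6c (ENSMUSG00000079419) was at 369 and 356 FPKM in NanoCa and at 119 and 109 in Mock, a 3.18-fold ratio. Ms4a6d (ENSMUSG00000024679), the most abundant member in every library, was at 478 and 457 FPKM in NanoCa and at 220 and 207 in Mock, a 2.19-fold ratio. All 3 were higher in both NanoCa libraries without overlap, and the ratio was smaller the more abundant the gene was in Mock. Their log2 fold changes were 2.48 (SE 0.09), 1.66 (SE 0.05) and 1.13 (SE 0.05).

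Ms4a7 (ENSMUSG00000024672), a marker of tissue-resident macrophages in the mouse, had the smallest SD of the members relative to its mean in both groups. It was at 389.1 and 389.2 FPKM in NanoCa and at 139.0 and 138.8 in Mock, a 2.80-fold ratio (log2 fold change 1.48, SE 0.04). The groups did not overlap, and the SD within each group was under 0.2 FPKM. Ms4a4a (ENSMUSG00000101389), a macrophage protein that works with the fungal receptor dectin-1, stood apart from these genes. It was at 109.6 and 110.9 FPKM in NanoCa and at 105.9 and 108.6 in Mock, means of 110.3 ± 0.920 and 107.2 ± 1.85. Its NanoCa libraries lay just above its Mock libraries, with a log2 fold change of 0.04 (SE 0.04), which was 0.23 when libraries were scaled by median of ratios and -0.09 after quantile normalization.

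Across the table, the linear model (limma, Benjamini-Hochberg adjusted over 11116 genes, threshold 0.05) called 21.7% of genes higher in NanoCa and 49.7% lower. With median-of-ratios scaling it called 3717 genes higher and 3620 lower, where the main scaling gave 2409 and 5520. Over all 11116 genes the median log2 fold change was -0.17, and that scaling shifted it by 0.17. Of the 10 members, 7 had a mean of at least 1 FPKM and entered this fit. Of these, 5 were called higher (Ms4a4c, Ms4a6b, Ms4a6c, Ms4a6d and Ms4a7), 1 lower (Ms4a8a) and 1 not called (Ms4a4a). NanoCa lay wholly above Mock for 8 of 10 members and wholly below for 2, where among all genes tested 27.4% lay above and 58.9% below. Since this contrast chose the members, nothing is read from these counts.

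**Figure D2:**
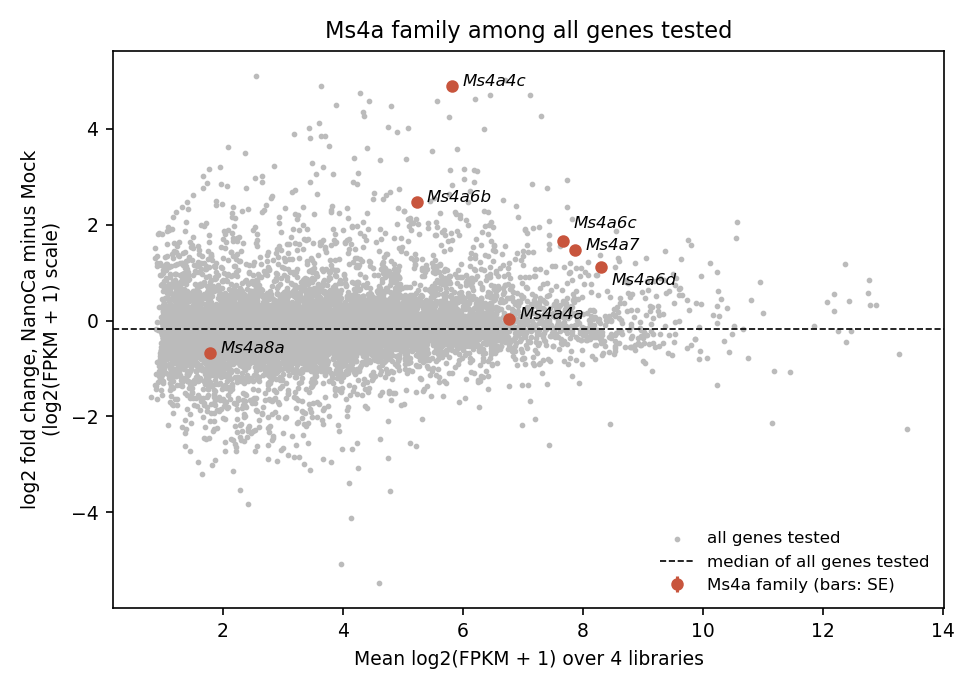
Log2 fold change (NanoCa minus Mock) against mean level for all 11116 genes tested (grey), with the 7 tested Ms4a genes in red and bars for SE, which are mostly smaller than the points. Ms4a4c sits at the upper edge of the cloud at 4.90, Ms4a4a near 0 and Ms4a8a at -0.67, and the dashed line is the median of all genes at -0.17.

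RefSeq promoter windows (GRCm38.p6, 250 bases before to 50 after an annotated start) were found for 9 of the 10 genes, with 2 starts for Ms4a7. The motifs described, searched on both strands, are the core of the interferon-stimulated response element (GAAANNGAA), to which interferon regulatory factors bind, and a PU.1 core (GAGGAAGT). The response element core occurred in 3 of 9 members, Ms4a6b, Ms4a6c and Ms4a7, and in 9.76% of all 27025 genes with a window. Per window it was in 4 of 10, and in 8.56% of all 32851. The PU.1 core was in none of the members' windows and in 3.20% of all. A match is a stretch of letters and not a site shown to be bound, and no match describes only these windows. The 250 upstream bases are printed for the genes with the widest gap or with a match, together with Ms4a4b, the closest relative of Ms4a4c, and capitals mark the response element core. They lie on the plus strand at chr19:11407411-11407660 (Ms4a4c), chr19:11443308-11443557 (Ms4a4b), chr19:11518309-11518558 (Ms4a6b) and chr19:11469118-11469367 (Ms4a6c), and on the minus strand at chr19:11336147-11336396 (Ms4a7, first start), each written 5′ to 3′ along the gene.
Ms4a4c: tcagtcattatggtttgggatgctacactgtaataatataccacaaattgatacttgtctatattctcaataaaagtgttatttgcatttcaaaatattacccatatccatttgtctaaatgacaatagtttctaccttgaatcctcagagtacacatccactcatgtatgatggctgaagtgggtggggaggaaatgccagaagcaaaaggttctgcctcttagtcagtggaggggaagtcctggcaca
Ms4a4b: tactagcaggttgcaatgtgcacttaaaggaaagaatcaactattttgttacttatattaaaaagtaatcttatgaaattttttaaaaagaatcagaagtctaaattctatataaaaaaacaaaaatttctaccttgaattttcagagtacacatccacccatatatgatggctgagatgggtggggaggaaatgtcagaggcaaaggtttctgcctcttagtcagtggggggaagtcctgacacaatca
Ms4a6b: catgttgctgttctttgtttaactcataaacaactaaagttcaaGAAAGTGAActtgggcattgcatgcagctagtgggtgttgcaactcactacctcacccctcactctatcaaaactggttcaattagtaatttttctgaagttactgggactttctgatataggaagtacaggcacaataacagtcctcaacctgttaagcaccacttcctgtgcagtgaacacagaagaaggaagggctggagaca
Ms4a6c: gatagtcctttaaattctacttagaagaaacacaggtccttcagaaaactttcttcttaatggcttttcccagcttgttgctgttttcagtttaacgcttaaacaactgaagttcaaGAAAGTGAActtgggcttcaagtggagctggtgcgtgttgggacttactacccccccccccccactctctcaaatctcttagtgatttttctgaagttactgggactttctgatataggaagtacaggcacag
Ms4a7: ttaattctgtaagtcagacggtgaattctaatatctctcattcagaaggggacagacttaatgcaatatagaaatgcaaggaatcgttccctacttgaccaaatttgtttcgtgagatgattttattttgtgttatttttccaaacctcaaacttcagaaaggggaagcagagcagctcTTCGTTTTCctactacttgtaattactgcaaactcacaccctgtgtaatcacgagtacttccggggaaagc

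The Ms4a6b and Ms4a6c promoters carry the same 9 letters, GAAAGTGAA, starting 206 and 133 bases before the start. They also share an exact run of 48 bases, the longest among all pairs of these windows, which begins 118 bases before the start of Ms4a6b and 49 before that of Ms4a6c. In Ms4a7 the core lies on the opposite strand, starting 71 bases before its first start, and the second start has a match of its own (GAAAAGGAA) at 148 bases. Ms4a4c, with the widest gap between the groups, has no match in its window. Its promoter aligned with that of Ms4a4b at 68.8% identity, the highest of all pairs. The levels of these genes, at the lengths behind their FPKM, differed by more than 10-fold in both groups. The windows of Ms4a4a, Ms4a4b, Ms4a4d, Ms4a8a and Ms4a3 had no match either.

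**Figure D3:**
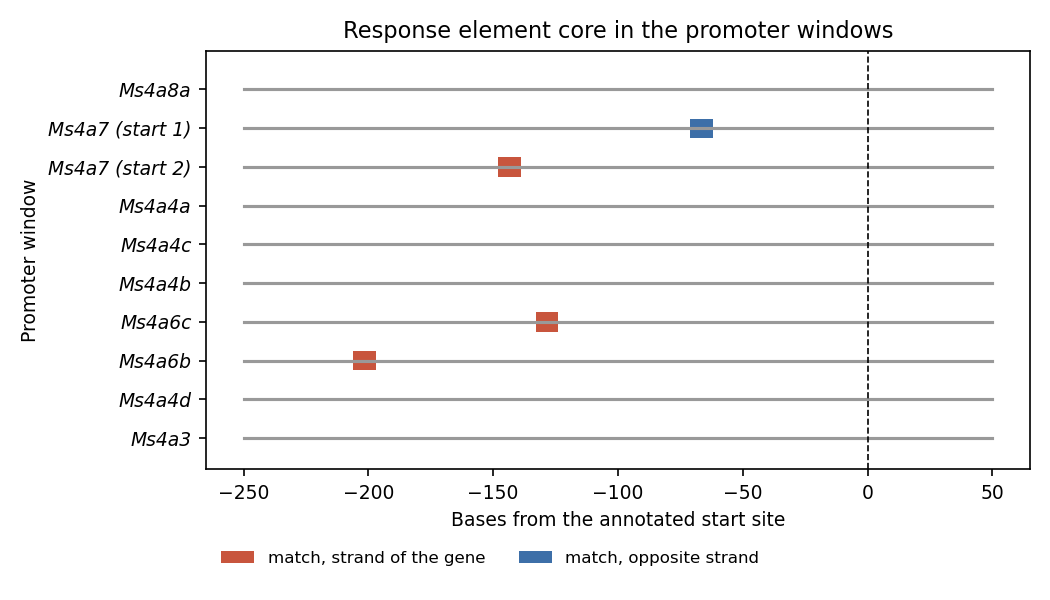
Position of the response element core in the promoter windows of 9 members, in bases from the annotated start (dashed line), with red for a match on the gene's strand and blue for the opposite strand. Matches are drawn in Ms4a7 (both starts), Ms4a6c and Ms4a6b and in no other window.

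The members at low levels divided in direction. Ms4a4d (ENSMUSG00000024678) rested on 18 and 24 reads (NanoCa) and on 1 and 2 (Mock), or 0.496 and 0.696 FPKM against 0.0212 and 0.0490. The ratio of its read rates was 17.4 (exact 95% interval 5.56 to 87.7, for counting error only). Ms4a4b (ENSMUSG00000056290), which in mouse T cells associates with the receptor GITR, was at 0.553 and 0.573 FPKM in NanoCa and at 0.345 and 0.328 in Mock. Its read rates had a ratio of 1.67 (interval 1.27 to 2.21) on 63 and 62 reads against 51 and 42. T and NK cell markers were at low levels too. Of 12 markers none reached a mean of 1 FPKM over the libraries. Cd3e averaged 0.0150 FPKM under NanoCa and 0.0110 under Mock, and Ncr1 was listed at 0 throughout. The most abundant in NanoCa was Cd4 (0.710 FPKM against 0.446 in Mock), above Ms4a4b in both groups. Cd2 (0.875 FPKM in Mock against 0.0752 in NanoCa) and Thy1 (0.771 against 0.0240) lay above Ms4a4b in Mock only. The 12 summed to 1.01 and 1.39 FPKM in NanoCa and to 2.52 and 2.51 in Mock, and their part in the level of Ms4a4b was not tested.

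Some pairs of Ms4a4 and Ms4a6 genes share exact stretches of 50 bases. Ms4a4b and Ms4a4c coding sequences were 91.7% identical, and 8.00% of the 50-base words of the Ms4a4c transcript also occur in annotated Ms4a4b transcripts. Ms4a4c and Ms4a4d were 85.7% identical, with 0.478% of words shared. Ms4a6b and Ms4a6c shared 6.11% of the words of Ms4a6b, and Ms4a6b and Ms4a6d 2.44%. Ms4a4a shared no such word with Ms4a4b, Ms4a4c or Ms4a4d, nor did Ms4a6c with Ms4a6d or Ms4a4b with Ms4a4d. No source used here says how such reads were assigned. Ms4a4c had 13042 and 11911 reads in NanoCa, where Ms4a4b had 63 and 62 and Ms4a4d 18 and 24, so the levels of Ms4a4b and Ms4a4d are uncertain, and the part of shared reads in them was not tested.

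Ms4a8a and Ms4a3 were the members below Mock. Ms4a8a (ENSMUSG00000024730), linked in mouse macrophages to alternative activation, was at 1.70 and 1.79 FPKM in NanoCa and at 3.27 and 3.46 in Mock. Both NanoCa libraries lay below both Mock libraries, at 51.7% of the Mock mean, with 44 reads in each NanoCa library and 110 and 101 in Mock (log2 fold change -0.67, SE 0.07). Ms4a3 (ENSMUSG00000024681), whose human counterpart binds a phosphatase of cyclin-dependent kinases, rested on 4 and 1 reads (NanoCa) and on 22 and 43 (Mock). Its levels were 0.165 and 0.0434 FPKM against 0.700 and 1.58, and its read rates had a ratio of 0.0955 (interval 0.0300 to 0.235). The Mock libraries differed from each other by more than 2-fold, yet both lay above the NanoCa libraries.

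Several markers of granulocyte precursors and neutrophils were lower in NanoCa, as Ms4a3 was. Of 14 such genes 8 were tested, 7 fell and 1 did not pass, where 49.7% of all genes tested were called lower and 21.7% higher. Elane, Prtn3, Ctsg, Ltf and Ngp reached a mean of 1 FPKM only through Mock, so these had to be lower and the count is no support. With no filter, 6 of 14 passed as lower, where 5727 of all 23929 genes did. Prtn3 (adjusted p = 0.0923) and Ctsg (adjusted p = 0.0684) did not pass in that fit. S100a9, which encodes part of calprotectin, fell most (-5.47, limma adjusted p = 3.86e-05), followed by Ngp (a neutrophil granule protein, -3.83, adjusted p = 3.85e-05), lactoferrin Ltf (-1.65, adjusted p = 0.000525) and neutrophil elastase Elane (-1.36, adjusted p = 0.00474). The 14 genes summed to 53.0 and 64.8 FPKM in NanoCa and to 232 and 425 in Mock, and as with Ms4a3 the second Mock library was the higher. S100a8 (94.1 and 154 FPKM) and S100a9 (115 and 225) dominated the Mock sums, and S100a8 (47.8 and 58.0) the NanoCa sums. No marker of this list was at 0 in all libraries, and Ly6g averaged 0.0233 FPKM under NanoCa and 0.0762 under Mock. In bulk samples, fewer cells of a type and less RNA per cell cannot be told apart, and the part of these cells in the level of Ms4a3 was not tested.

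**Figure D4:**
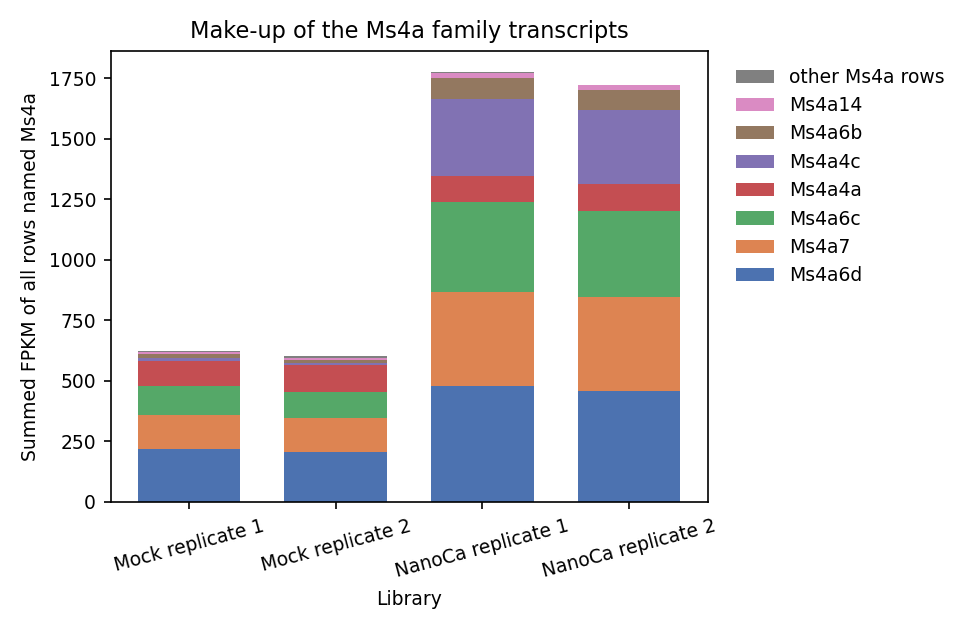
Summed FPKM of all rows named Ms4a in each library, stacked by gene. The NanoCa columns reach 1774 and 1723 FPKM against 625 and 601 in Mock, and the Ms4a4c segment takes 17.7% of the NanoCa mean and 1.55% of the Mock mean.

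As shares of the family's summed FPKM, Ms4a4c held 17.7% ± 0.131 in NanoCa and 1.55% ± 0.267 in Mock (SD, n = 2), and Ms4a6b 5.02% and 2.44%. Ms4a4a went the other way, at 6.31% ± 0.182 and 17.5% ± 0.778, and so did Ms4a6d, at 26.7% ± 0.282 and 34.9% ± 0.511. Ms4a7 held nearly the same share in both groups, 22.3% ± 0.462 and 22.7% ± 0.589. Ms4a6c was at 20.7% ± 0.134 and 18.6% ± 0.548.

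Among the 13 other family rows, counting the related genes Tmem176a and Tmem176b on chromosome 6, 7 were at 0 in all 4 libraries and 3 were tested. Ms4a14 (ENSMUSG00000099398) rose from 8.76 and 8.47 FPKM in Mock to 19.9 and 17.8 in NanoCa (log2 fold change 1.04, SE 0.06, limma adjusted p = 2.91e-05). Tmem176b, which regulates ion traffic in the endosomes of dendritic cells, rose from 10.99 and 10.9 FPKM to 12.9 and 13.1 (0.23, SE 0.04, adjusted p = 0.00391). Tmem176a was at 4.72 and 4.30 FPKM in NanoCa and at 4.21 and 4.84 in Mock, with overlapping groups (0.00, adjusted p = 0.971). Ms4a1 (CD20) had 1 read in 1 NanoCa library and 0 elsewhere. Ms4a2, below the filter, rested on 11 and 3 reads (NanoCa) and on 54 and 90 (Mock), a ratio of read rates of 0.121 (interval 0.0644 to 0.209). Of 10 mast cell and basophil markers, 6 were tested and 4 fell, where 49.7% of all genes tested were called lower. Those that fell were the protease Cpa3 (-2.31, adjusted p = 9.21e-05), the basophil protease Prss34 (-1.40), Kit (-1.28) and Mcpt8 (-1.08). Gata2 (0.10, adjusted p = 0.386) and Hdc (-0.16, adjusted p = 0.196) did not pass, although Gata2 did as higher after quantile normalization, and Cpa3, Prss34, Mcpt8 and Hdc reached the filter only through Mock. The 10 markers, Ms4a2 among them, summed to 5.14 and 4.99 FPKM in NanoCa and to 16.02 and 26.04 in Mock, with Tpsb2 and Cma1 at 0 in NanoCa, and their part in the level of Ms4a2 was not tested.

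In the order of the RefSeq annotation, Ms4a14, Ms4a7, Ms4a4a, Ms4a4c, Ms4a4b, Ms4a6c, Ms4a6b, Ms4a4d and Ms4a6d follow each other, broken only by Gm8369 between Ms4a6c and Ms4a6b. The ends of this stretch were set by where the genes with a higher NanoCa mean start and stop, on the values that chose the members, so its shared direction is a description only. It held abundant genes such as Ms4a6d and also Ms4a4b and Ms4a4d, which stayed under 1 FPKM, and the difference of Ms4a4a turned with quantile normalization. Gm8369, not a member, rose from 0.846 ± 0.139 to 2.06 ± 0.251 FPKM (log2 fold change 0.73, adjusted p = 0.00116). Gm8369 reached the filter only through NanoCa, so it had to be higher and its call is no support. Ms4a2 and Ms4a3 lie next to each other at one end of the cluster and were both lower in NanoCa, and Ms4a8a lies toward the other end among genes at or near 0.

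The genes outside the cluster did not share 1 direction. Of the 6 protein-coding genes on the Ms4a10 side 4 were tested, and Ccdc86 (0.61, adjusted p = 6.67e-05) and Tmem132a (0.48, adjusted p = 0.0170) rose while Prpf19 (-0.21, adjusted p = 0.0113) and Tmem109 (-0.19, adjusted p = 0.0296) fell. Neither fall passed with median-of-ratios scaling (adjusted p = 0.556 and 0.902) or quantile normalization (0.630 and 0.281). Without Mock replicate 2 neither Prpf19 (adjusted p = 0.0727) nor Tmem109 (log2 fold change -0.16) passed, Tmem109 did not without NanoCa replicate 1 (adjusted p = 0.121), and Tmem132a did not without NanoCa replicate 2 (adjusted p = 0.0649) or with no filter (adjusted p = 0.0872). On the Ms4a3 side, the syntaxin gene Stx3 rose by 0.23 (adjusted p = 0.00742), and Mrpl16, a mitochondrial ribosomal protein gene, was at -0.09 (adjusted p = 0.127). The other 4 genes there were at or near 0.

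**Figure D5:**
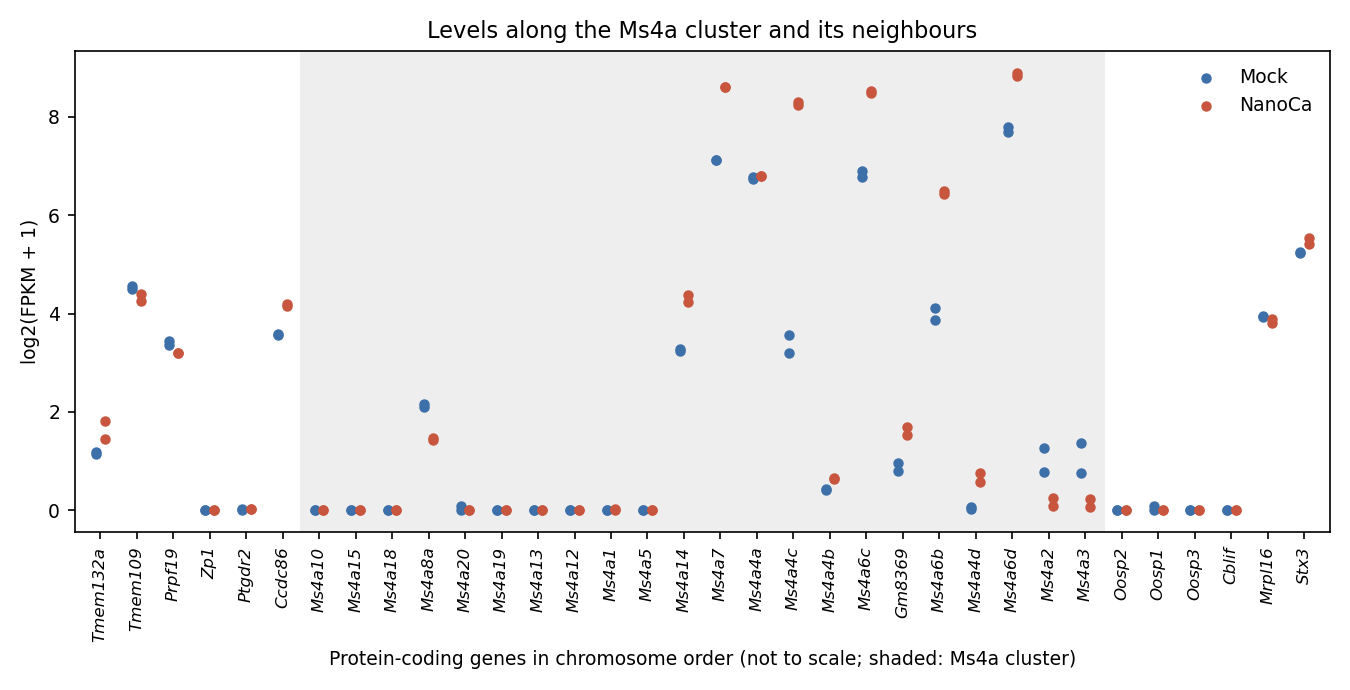
Level of each protein-coding gene, as log2(FPKM + 1) in the 2 Mock and 2 NanoCa libraries, in chromosome order and not to scale, with the Ms4a cluster shaded. Within the cluster, the run from Ms4a14 to Ms4a6d holds the 6 most abundant members together with the low Ms4a4b and Ms4a4d, and most genes from Ms4a10 to Ms4a5 lie at 0, while Stx3, Ccdc86 and Tmem109 outside it are expressed in both groups.

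Genes tied to the family by binding or by signalling were mixed. Among all genes tested, 21.7% were called higher and 49.7% lower, with a median log2 fold change of -0.17. Of 12 partner genes 10 were tested, 4 rose and 5 fell, the latter near the share of all genes, with a median of -0.10. Scaling by median of ratios turned these counts into 5 and 4, and quantile normalization into 2 and 6. The largest differences were of Cdkn3, the phosphatase that the human counterpart of Ms4a3 binds (-2.49, adjusted p = 1.47e-05), the stem cell factor receptor Kit, which human MS4A4A is known to help traffic (-1.28, adjusted p = 0.000611), Cdk2 (-1.04, adjusted p = 1.25e-05) and the microglial and macrophage receptor Trem2 (0.81, adjusted p = 2.41e-05). Clec7a, which encodes dectin-1, had a mean of 521 ± 21.6 FPKM under NanoCa and 608 ± 41.0 under Mock (log2 fold change -0.22, adjusted p = 0.0167). It did not pass with median-of-ratios scaling (adjusted p = 0.727), with no filter (0.0842), without NanoCa replicate 2 (0.0750) or without Mock replicate 1 (0.0787).

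Of 16 alternative activation genes, with which Ms4a8a is linked, 13 were tested. Among them 4 rose and 7 fell, and their median was -0.29. The share that fell was near the 49.7% of all genes called lower, where 21.7% were called higher and the median was -0.17. The chemokine Ccl17 (-5.09, adjusted p = 1.98e-06) and the lectins Mgl2 (-3.56, adjusted p = 1.29e-06) and Clec10a (-2.46, adjusted p = 5.24e-06) fell, while arginase Arg1 rose from 3.62 ± 1.52 to 91.1 ± 0.824 FPKM (4.36, adjusted p = 1.04e-05). No list was tested as a set. Mrc1 stands in this list and in the macrophage list, and Kit among the partners and the mast cell markers.

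Macrophage and monocyte markers, the setting in which Ms4a7, Ms4a4c and the Ms4a6 genes are known, were also divided. For the lists that follow, the shares of all genes tested were 21.7% called higher and 49.7% lower, with a median of -0.17. Of 15 macrophage markers 11 were tested, 7 rose and 4 fell, with a median of 0.80. Marco (a scavenger receptor, 3.64, adjusted p = 6.59e-07), the folate receptor Folr2 (2.37, adjusted p = 5.07e-06), and the complement genes C1qa (1.55, adjusted p = 2.97e-05) and C1qc (1.21, adjusted p = 3.46e-05) rose. Those that fell were the mannose receptor Mrc1 (-1.16, adjusted p = 4.02e-06), Cbr2 (-0.68, adjusted p = 0.00247), Gas6 (-0.54, adjusted p = 0.000305) and Mertk (-0.28, adjusted p = 0.00115). Mertk did not pass when libraries were scaled by median of ratios (adjusted p = 0.0996). Folr2 reached the filter only through NanoCa (mean of 4.67 FPKM against 0.0975 in Mock), so it had to be higher and its call is no support. Vsig4 was at 0 in NanoCa, and Timd4 had means of 0.0101 and 0.0159 FPKM. The 15 summed to 1596 and 1698 FPKM in NanoCa and to 918 and 980 in Mock. All 10 monocyte markers were tested, 6 rose and 4 fell, with a median of 0.42. The chemokine receptor Ccr2 (-2.60, adjusted p = 6.82e-07) and lysozyme Lyz2 (-2.26, adjusted p = 2.25e-06) fell, and the Fc receptor Fcgr1 (1.92, adjusted p = 2.17e-06) and Cd14 (1.92, adjusted p = 1.08e-06) rose. The 10 summed to 6501 and 6748 FPKM in NanoCa and to 24903 and 25157 in Mock, sums that Lyz2 dominated. Of 12 conventional dendritic cell markers 7 were tested, 3 rose and 4 fell. The largest values were of Clec9a (-1.87), Irf4 (-1.13), Fscn1 (0.70) and Itgax (-0.68). Clec9a reached the filter only through Mock (mean of 0.961 FPKM in NanoCa against 6.20), so it had to be lower. With a mean of at least 5 FPKM, 3 passed as higher and 2 as lower. The part of these cell types in the levels of Ms4a7, Ms4a4c and the Ms4a6 genes was not tested.

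Plasmacytoid dendritic cell and B cell markers were under 1 FPKM in both group means, apart from Tcf4, Runx2 and, in Mock, Ighm. Of 8 plasmacytoid markers 2 were tested, Tcf4 (0.39, adjusted p = 0.00108) and Runx2 (-0.18, adjusted p = 0.0198), with Siglech at 0 in NanoCa and Ly6d at 0 throughout. The fall of Runx2 did not pass with median-of-ratios scaling (adjusted p = 0.956, sign turned) or quantile normalization (0.734), nor without NanoCa replicate 1 (0.0867) or Mock replicate 1 (0.102). Of 7 B cell markers 1 was tested, Ighm (-2.90, adjusted p = 1.77e-05), which went from 9.09 ± 2.18 to 0.338 ± 0.112 FPKM. Ighm reached the filter only through Mock, so it had to be lower and its call is no support.

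For each tested member, the genes most alike were found by Euclidean distance over the 4 libraries, on log2(FPKM + 1) minus the gene's Mock mean. Nearest to Ms4a4c were Slfn4 (distance 0.153), Rsad2 (0.190) and Ifit3 (0.267), and nearest to Ms4a6b were Ifi47 (0.0157), Hbegf (0.123) and Oasl2 (0.142). Among the genes nearest to Ms4a6c were Epsti1 (0.0305) and Tlr3 (0.0420). Ms4a7 was nearest to Gm20056 (0.0384), H2-T23 (0.0408) and Gch1 (0.0448), and Ms4a6d to Clec12a (0.0282), Col6a2 (0.0354) and C3ar1 (0.0371). The genes nearest to Ms4a4a were Tomm40l, Pdp1 and Dop1b, and those nearest to Ms4a8a were Bcor, Adgrl2 and Tmem268, all at distances under 0.02. With 4 libraries in 2 groups, such a distance reflects the size of the group difference and the order of the replicates and nothing finer.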

How the data were processed

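Libraries were made with the SMARTER mRNA-Seq kit, as the labels' protocols state. The deposited values are FPKM, which the authors computed for 55487 genes, per the name of the deposited table. The genome is GRCm39, per the submitters' processing notes, and no source used here names the aligner, counter or annotation. Library totals and whole reads were recovered from the FPKM steps and GENCODE transcript lengths (all 23929 genes with a value, tolerance 1e-06), with 99.99% of the reads of each library or more accounted for.

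Genes with a mean of at least 1 FPKM over 4 libraries (11116) were tested on log2(FPKM + 1) with limma 3.58.1 in R 4.3.3 (lmFit, eBayes with trend, two-sided, Benjamini-Hochberg). Since separate cultures are not stated, p-values reflect only the variation among these 4 libraries, possibly technical. This log2 scale understates the change of low genes. The exact 95% intervals of read ratios cover counting error only. The script was tested on simulated data.

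Members and lists were chosen with earlier results of these data known. The text names all members, other family rows of at least 1 FPKM, up to 4 called genes per list with the largest change, flanking genes by position and the 3 nearest genes per member, and a few others (such as Clec7a, Cd3e and Ly6g) were chosen after their values were seen. A few items that these rules select are not reported here. No protein sequences were used, so identity was computed on coding bases of GENCODE M21, by global alignment in Biopython 1.88. RefSeq and GENCODE tables are of GRCm38 and served for gene order, lengths and sequences.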

Additional observations from a re-analysis of the deposited data

How the results depend on the processing

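With 2 libraries per group, depth limits Ms4a3, Ms4a4d, Ms4a4b and Ms4a8a most, with at most 43, 24, 63 and 110 reads in any library. The calls of Ms4a14 and Tmem176b held in all 13 alternatives run, and the members' values, which chose them, are listed as description only. Median-of-ratios scaling gave 3717 genes higher and 3620 lower, and it called Ms4a4a higher (0.23), as did all 6 columns (0.04), the scaled means counted as libraries. With no filter on low values, 2 members (Ms4a8a and Ms4a3) and 1 other family gene (Ms4a2) passed as lower, and 7 members as higher, Ms4a4b and Ms4a4d added. With a mean of at least 5 FPKM, 0 members passed as lower, since Ms4a8a was not tested. Leaving out 1 library gave 2139 to 2271 genes higher and 4948 to 5125 lower. The replicate block gave 2538 genes higher and 5691 lower and changed no call of a member. The labels do not say that replicate numbers pair the libraries, and the deviations of same-numbered libraries correlated at 0.133 across genes. The cause of these shifts was not tested.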
